A study of Mus musculus with 18 samples.

Results

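The guanylate-binding proteins (Gbp) are large GTPases, and the 10 Gbp genes described here, Gbp2 to Gbp11, were listed by symbol among the 24391 genes of the deposited expression tables. The genes were chosen by family name, at a point when their normalized counts and fold changes in these same libraries were already known, so the values that follow also bore on the choice. Counts of members and their adjusted p-values describe the family and are not independent support for a direction. All members had a row in both tables. A relative, Gbp2b, also had a row and is given as a neighbour of the family, not as a member.

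Guanylate-binding proteins belong to the dynamin superfamily. They are made after interferon gamma, with IRF1 among the factors that act on their genes, and to a lesser degree after type I interferon. They assemble on the membranes of intracellular bacteria and parasites, some through a lipid added at their C terminus, and they promote release of pathogen products to inflammasomes. T cells also express them, where their role is less well described. RBPJ, the DNA-binding factor of the Notch pathway, activates targets with Notch and represses them with corepressors. L3MBTL3 is a chromatin protein that has been described as a corepressor partner of RBPJ.

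RNA from the hybridoma called E2-10HA, an immortal line made from mouse T cells, was measured by sequencing of stranded, ribosome-depleted total RNA. The knockdown experiment compared 3 libraries of cells that received the puromycin-selected hairpin plasmid pLKO.1-shRNA-scramble with 3 libraries labelled L3MBTL3 shRNA, all from 1 hairpin. In the rescue experiment all groups were depleted of RBPJ and selected with Blasticidin. They carried the empty pMY-Bio vector, Flag-tagged mouse RBPJ (RBPJ WT), or the same protein with the substitutions F261A and A284V (RBPJ F261A/A284V), with 4 libraries each. pMY is a retroviral vector, so the introduced RBPJ was not under the native promoter. The labels do not say whether any line was a single clone.

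The recovered reads per library, meaning the whole read counts behind the normalized values, summed to between 4882485 and 6129134 in the knockdown. In the rescue they lay between 5923799 and 7921533 in replicates 1 and 2, and between 3553505 and 4239479 in replicates 3 and 4. These replicate pairs stood apart: libraries on opposite sides of the divide deviated from their group means in opposite ways (correlations across genes from -0.76 to -0.49), and those on the same side together (0.55 to 0.83). Within 3 pairs of libraries the counts differed by less than the sampling noise: the first 2 of the empty vector, the first 2 of RBPJ WT, and replicates 3 and 4 of RBPJ F261A/A284V. Such a pair counts as a single sample, so rescue means ± SD have n = 3. Replicates 3 and 4 of the empty vector lay close to that noise (chi-square per degree of freedom over genes 1.06) but were kept as separate samples. Replicates 3 and 4 of RBPJ WT had 1.65. For the empty vector n = 3 may therefore overstate the number of separate samples. In the rescue means replicates 1 and 2 weigh less than 3 and 4 for the empty vector and RBPJ WT. For RBPJ F261A/A284V they weigh more, so differences between its means and those of the other groups mix in the divide. Scramble replicate 3, the library with the fewest reads of the knockdown, also stood apart, with a chi-square per degree of freedom over genes of 6.22 and 6.38 against the other scramble libraries, which had 1.42 between them. L3mbtl3 itself had values of 467, 447 and 352 in scramble replicates 1, 2 and 3. Libraries labelled L3MBTL3 shRNA had 394, 371 and 369.6. The groups overlapped (log2 fold change -0.15, limma adjusted p = 0.402), so directions in the knockdown are those of the labels. Rbpj averaged 281 ± 32.1 with the empty vector, 752 ± 101 with RBPJ WT and 778 ± 125 with RBPJ F261A/A284V (SD, n = 3 each), reads of the introduced and the native Rbpj not being told apart. The 12 T cell markers summed to between 5229 and 7246 in every group. B cell markers (6) and NK cell markers (5) summed to at most 5.89 and 4.62.

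The members lie in 2 clusters in the reference annotation of the mouse build GRCm38. On chromosome 3 the order is Gbp5, Gbp7, Gbp3 and Gbp2, with Gbp2b between the last pair. On chromosome 5 it is Gbp8, Gbp9, Gbp4, Gbp10, Gbp6 and Gbp11. The reads were aligned to mm9, so no gene coordinates are given. All are annotated as protein coding except Gbp11, a polymorphic pseudogene.

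Their transcripts are alike enough to share reads. The likeness of a short stretch is shown by the 60 bases that encode the nucleotide-binding P-loop and its flanks. These bases do not measure how many reads are shared. They are printed from the longest open reading frame of each gene's transcript in the annotation of GRCm38, with capitals at every base that differs from Gbp6.

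Gbp6: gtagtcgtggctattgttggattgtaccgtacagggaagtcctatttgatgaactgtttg
Gbp10: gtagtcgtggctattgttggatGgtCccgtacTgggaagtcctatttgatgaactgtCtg
Gbp9: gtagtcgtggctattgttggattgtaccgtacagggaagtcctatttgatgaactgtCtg
Gbp8: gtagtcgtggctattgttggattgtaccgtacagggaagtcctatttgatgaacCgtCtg
Gbp11: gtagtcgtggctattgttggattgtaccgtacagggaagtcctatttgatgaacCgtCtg
Gbp4: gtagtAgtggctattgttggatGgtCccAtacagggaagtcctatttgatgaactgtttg
Gbp7: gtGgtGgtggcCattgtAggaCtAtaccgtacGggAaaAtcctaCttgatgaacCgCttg
Gbp3: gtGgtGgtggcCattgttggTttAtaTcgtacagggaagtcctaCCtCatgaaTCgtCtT
Gbp2: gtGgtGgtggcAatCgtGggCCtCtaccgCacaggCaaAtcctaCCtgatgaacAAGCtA
Gbp5: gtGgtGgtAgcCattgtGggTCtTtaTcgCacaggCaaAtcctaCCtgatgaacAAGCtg

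In this stretch Gbp9 differed from Gbp6 at 1 base, Gbp8 and Gbp11 at 2, and Gbp4 and Gbp10 at 4. The chromosome 3 members differed at 12 to 18 bases, Gbp7 the least of them and Gbp2 and Gbp5 the most. The order of likeness was another over the whole reading frame, where Gbp6 and Gbp10 were 98.4% identical and Gbp6 and Gbp9 90.9%. Of the distinct 50-base stretches of the annotated transcripts of Gbp10, 76.2% also occurred in another member, against 49.9% for Gbp6, 19.2% for Gbp11 and 18.1% for Gbp8. For Gbp9 and Gbp4 the shares were 8.05% and 7.53%, and for Gbp2 and Gbp5 they were 0%. Of the stretches of Gbp10 and Gbp6, 72.1% and 65.0% also occurred in Gm43302, a gene model not analysed here. A 50-base read from a shared stretch cannot be assigned to 1 gene, and the labels do not record how such reads were counted. Values of Gbp6 and Gbp10 are therefore uncertain as single genes, and their sum is given as well.

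**Figure D1:**
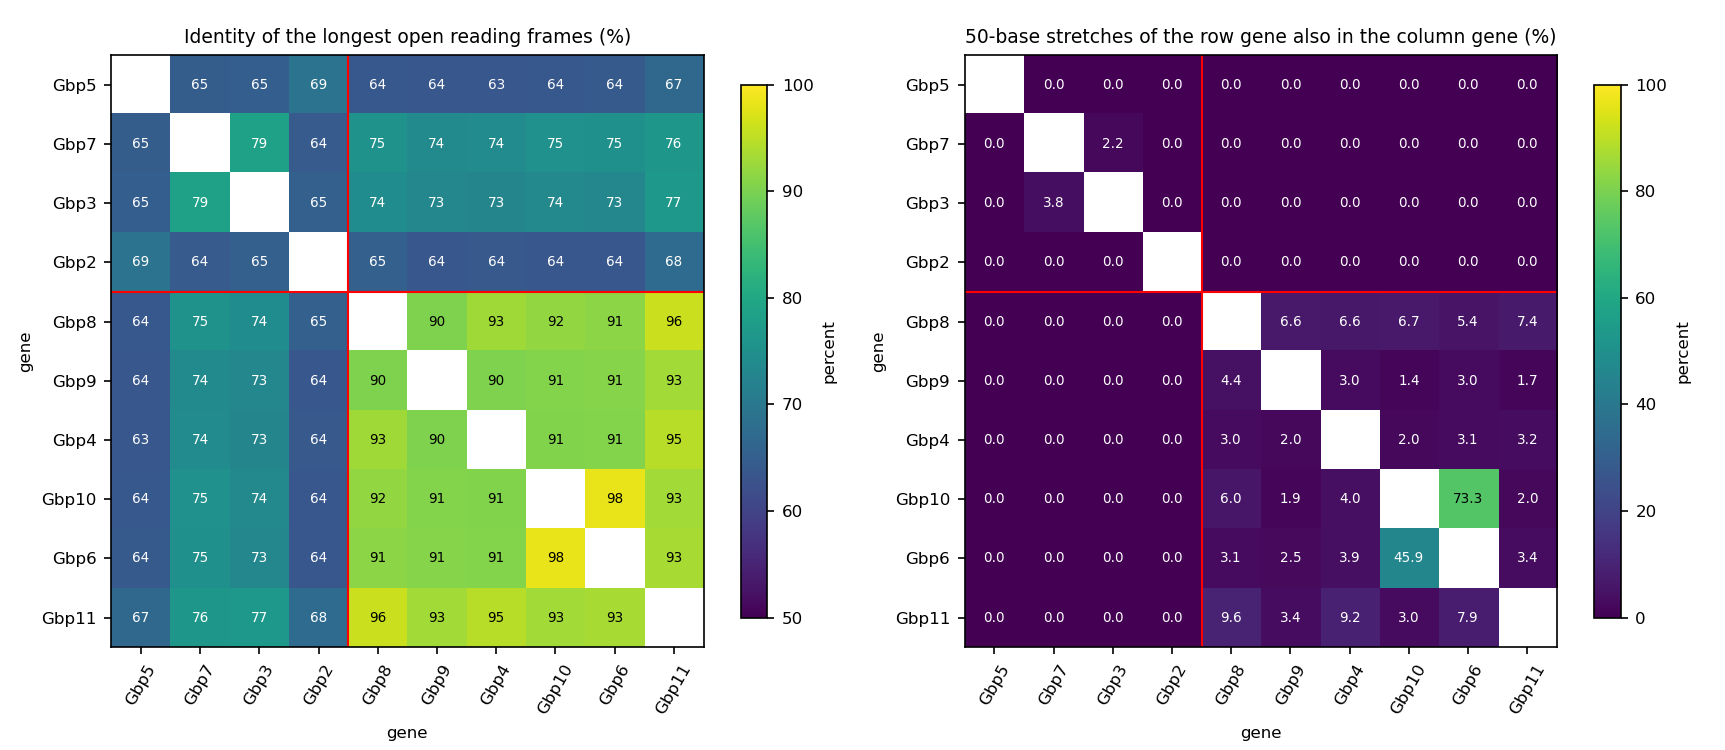
Likeness of the 10 Gbp genes in the annotation of GRCm38, in chromosomal order, with a red line between the chromosome 3 and chromosome 5 members. Left, percent identity of the longest open reading frames; right, percent of distinct 50-base transcript stretches of the row gene found in the column gene, where 73.3% of those of Gbp10 occur in Gbp6.

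Promoters of the 4 chromosome 3 members were read from the RefSeq table of GRCm38.p6 (4 of 10 members matched by symbol), as the 250 bases before the annotated start. They are shown because the interferon-stimulated response element and the gamma-activated site are the known entry points of interferon signals to this family, and because RBPJ was the factor changed in the rescue. The letters searched on both strands were GAAA, any 2 bases and GAAA for the response element, TTCNNNGAA for the gamma-activated site and GTGGGAA for the RBPJ motif. Capitals mark matches to the first of these and to the second.

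Gbp5, GRCm38.p6 chr3:142496684-142496933, plus strand: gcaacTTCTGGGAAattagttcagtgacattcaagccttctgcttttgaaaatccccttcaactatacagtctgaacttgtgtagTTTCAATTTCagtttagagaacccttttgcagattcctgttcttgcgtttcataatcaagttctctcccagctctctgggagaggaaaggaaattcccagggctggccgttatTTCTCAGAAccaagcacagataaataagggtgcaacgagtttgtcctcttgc
Gbp7, GRCm38.p6 chr3:142530086-142530335, plus strand: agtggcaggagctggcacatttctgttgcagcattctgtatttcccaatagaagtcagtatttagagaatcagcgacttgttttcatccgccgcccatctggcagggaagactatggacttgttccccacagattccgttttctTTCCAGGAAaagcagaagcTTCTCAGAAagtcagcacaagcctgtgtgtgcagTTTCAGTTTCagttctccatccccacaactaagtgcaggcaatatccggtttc
Gbp3, GRCm38.p6 chr3:142559794-142560043, plus strand: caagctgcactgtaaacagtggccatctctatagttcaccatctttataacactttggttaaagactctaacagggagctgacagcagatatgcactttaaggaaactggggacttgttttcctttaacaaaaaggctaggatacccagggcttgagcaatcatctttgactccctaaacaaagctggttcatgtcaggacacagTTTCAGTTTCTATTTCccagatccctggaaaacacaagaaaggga
Gbp2, GRCm38.p6 chr3:142620413-142620662, plus strand: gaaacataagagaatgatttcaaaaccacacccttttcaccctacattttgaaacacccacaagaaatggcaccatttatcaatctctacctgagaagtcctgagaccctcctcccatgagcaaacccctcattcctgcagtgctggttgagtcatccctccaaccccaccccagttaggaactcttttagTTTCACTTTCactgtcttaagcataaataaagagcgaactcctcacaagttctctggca

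The response element letters occurred in the windows of Gbp5 (first base 165 before the start), Gbp7 (53), Gbp2 (59) and Gbp3 (45 and 39, matches that overlap). They occur in 2.98% of 32851 promoter windows of the same length. The gamma-activated site letters occurred in Gbp5 (245 and 52 bases before the start) and Gbp7 (106 and 87), and in 7.02% of all windows. The RBPJ letters, found in 5.42% of all windows, were in none of the members' windows, a second annotated start of Gbp3 included. A match is a description of the sequence only.

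The family was expressed in every group, at levels that differ widely between members. Per kilobase of exon, the scramble libraries had the highest level for Gbp8, with 120.4 ± 13.0 normalized counts per kilobase (SD, n = 3), followed by Gbp6 (113 ± 28.0) and Gbp4 (110.1 ± 21.1). The libraries of these 3 genes overlapped from one to the next. After a step without overlap came Gbp10 (60.1 ± 13.1), Gbp7 (56.4 ± 15.7), Gbp9 (39.0 ± 7.19) and Gbp11 (35.5 ± 9.77), each overlapping the next. Gbp3 (8.45 ± 1.14) and Gbp2 (7.05 ± 3.45) were lower, and Gbp5 was nearly silent at 1.23 ± 0.02. In the libraries labelled L3MBTL3 shRNA the order began with Gbp6, Gbp4 and Gbp8.

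In the rescue table the order per kilobase was another. With the empty vector Gbp7 led at 135 ± 17.5 (SD, n = 3), without overlap with Gbp6 at 100.6 ± 10.7, which in turn did not overlap Gbp8 at 65.2 ± 5.37. Gbp2 (59.2 ± 13.5), Gbp4 (53.1 ± 6.39), Gbp10 (46.2 ± 7.68), Gbp3 (38.0 ± 12.1), Gbp9 (26.5 ± 7.87) and Gbp11 (26.1 ± 5.35) followed, with each overlapping the next. Gbp5 was the lowest at 12.4 ± 3.79. RBPJ WT and RBPJ F261A/A284V libraries kept Gbp7, Gbp6 and Gbp8 in the first places and Gbp5 in the last. The tables were normalized separately, so levels across them carry no test. Summed normalized counts of the chromosome 3 members averaged 847 to 1120 in the 3 rescue groups and 365 and 417 in the knockdown groups. Those of the chromosome 5 members averaged 876 to 1353 in the rescue groups and 1597 and 2320.5 in the knockdown groups.

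**Figure D2:**
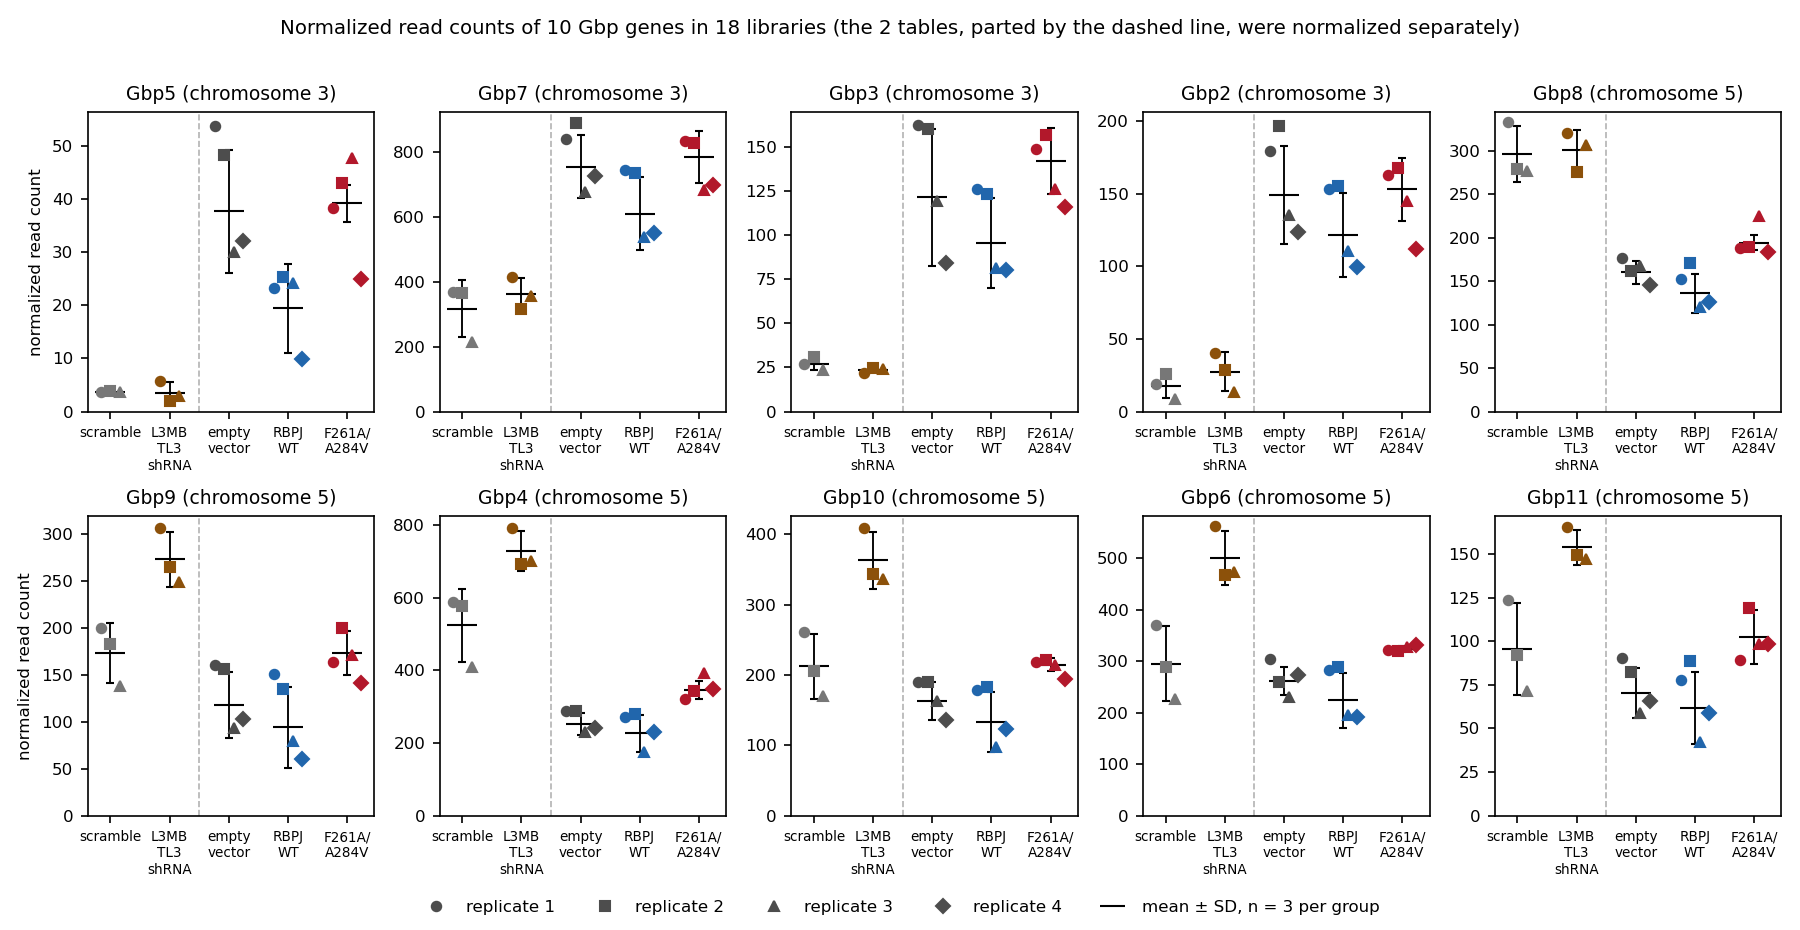
Normalized read counts (vertical axes, starting at 0) of the 10 Gbp genes in each of 18 libraries, with mean ± SD over n = 3 samples per group (near-identical library pairs counted once) and marker shapes for replicate numbers. Gbp9, Gbp4, Gbp10, Gbp6 and Gbp11 lie higher in all libraries labelled L3MBTL3 shRNA than in scramble, and replicates 3 and 4 of the RBPJ WT group lie low for most members.

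In the knockdown experiment, 5 of the 6 chromosome 5 members had higher values in every library labelled L3MBTL3 shRNA than in every scramble library. Gbp6 and Gbp10, the near-identical pair, rose by 1.72-fold and 1.73-fold. Gbp9, Gbp11 and Gbp4 were higher by 1.58-fold, 1.64-fold and 1.41-fold. In limma over all knockdown libraries they passed only with the replicate number as a block. In edgeR's quasi-likelihood test on the recovered reads, with group as the only term, Gbp9 passed as well (adjusted p = 0.0469). Gbp8, the sixth gene of that cluster, and the chromosome 3 members did not pass in either limma fit.

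Gbp6 had values of 371, 288 and 226 in scramble replicates 1 to 3, and of 562, 468 and 474 with the hairpin. The log2 fold change was 0.79 (SE 0.16, limma adjusted p = 0.0488). Gbp10 had 261.1, 205 and 169.6 against 409, 343 and 336 (log2 0.79, SE 0.15, adjusted p = 0.0447). In both genes the lowest library with the hairpin lay above the highest scramble library, and scramble replicate 3 was the lowest of all, as it also was for Gbp2, Gbp4, Gbp7, Gbp9 and Gbp11. Their sum was 507 ± 119 in scramble and 864 ± 92.9 with the hairpin (SD, n = 3 each), a ratio of 1.70. A split of reads between the pair does not alter this sum. It still depends on reads shared with Gm43302 and on whether shared reads were counted at all, which is not recorded.

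Gbp9 values were 199, 183 and 138 in scramble and 306, 264 and 249 with the hairpin (log2 0.66, SE 0.15, adjusted p = 0.0519, 0.0010 with the block). Gbp11 values were 124, 92.0 and 71.3 against 165, 149 and 147 (log2 0.71, SE 0.19, adjusted p = 0.0736, 0.0047 with the block). Gbp4, the member with the highest mean value here, had 587, 578 and 408 against 793, 694 and 699.8 (log2 0.49, SE 0.13, adjusted p = 0.0771, 0.0019 with the block). None of these 3 genes overlapped between the groups. Gbp8, next to Gbp9 on the chromosome, had 333, 279 and 277 against 320.1, 276 and 306, with overlapping groups (log2 0.02, 95% confidence interval -0.20 to 0.25).

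The chromosome 3 members overlapped between the groups. Gbp7 values were 369.6, 365 and 215 in scramble and 415, 317 and 355 with the hairpin (log2 0.23, adjusted p = 0.490). Gbp3 had 27.1, 30.7 and 23.4 against 22.1, 24.5 and 24.0 (log2 -0.19, adjusted p = 0.589). Gbp2 had 18.7, 25.9 and 8.60 against 40.4, 28.5 and 13.4 (log2 0.60, adjusted p = 0.449). Gbp5, at 1.96 to 5.77 in all 6 libraries, did not reach the filter of 10 and was not tested.

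In all, 2 of 9 tested members rose and none fell with group as the only term in limma, beside 2.21% of all 11586 tested genes called higher and 3.32% called in either direction. With the block 5 of 9 rose, beside 13.5% of all genes called higher. The 5 members without overlap stand beside 18.1% of all genes that were higher without overlap. The median log2 fold change over the 9 members was 0.60, against -0.01 over all tested genes. Leaving out scramble replicate 2, or any 1 of the libraries labelled L3MBTL3 shRNA, left no member called, while 4 were called without scramble replicate 1 (Gbp6, Gbp9, Gbp10 and Gbp11, beside 2.03% of all genes called higher) and 4 without scramble replicate 3 (Gbp4, Gbp6, Gbp9 and Gbp10, beside 5.58%). The log2 fold change of Gbp4 was 0.32 without scramble replicate 3.

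**Figure D3:**
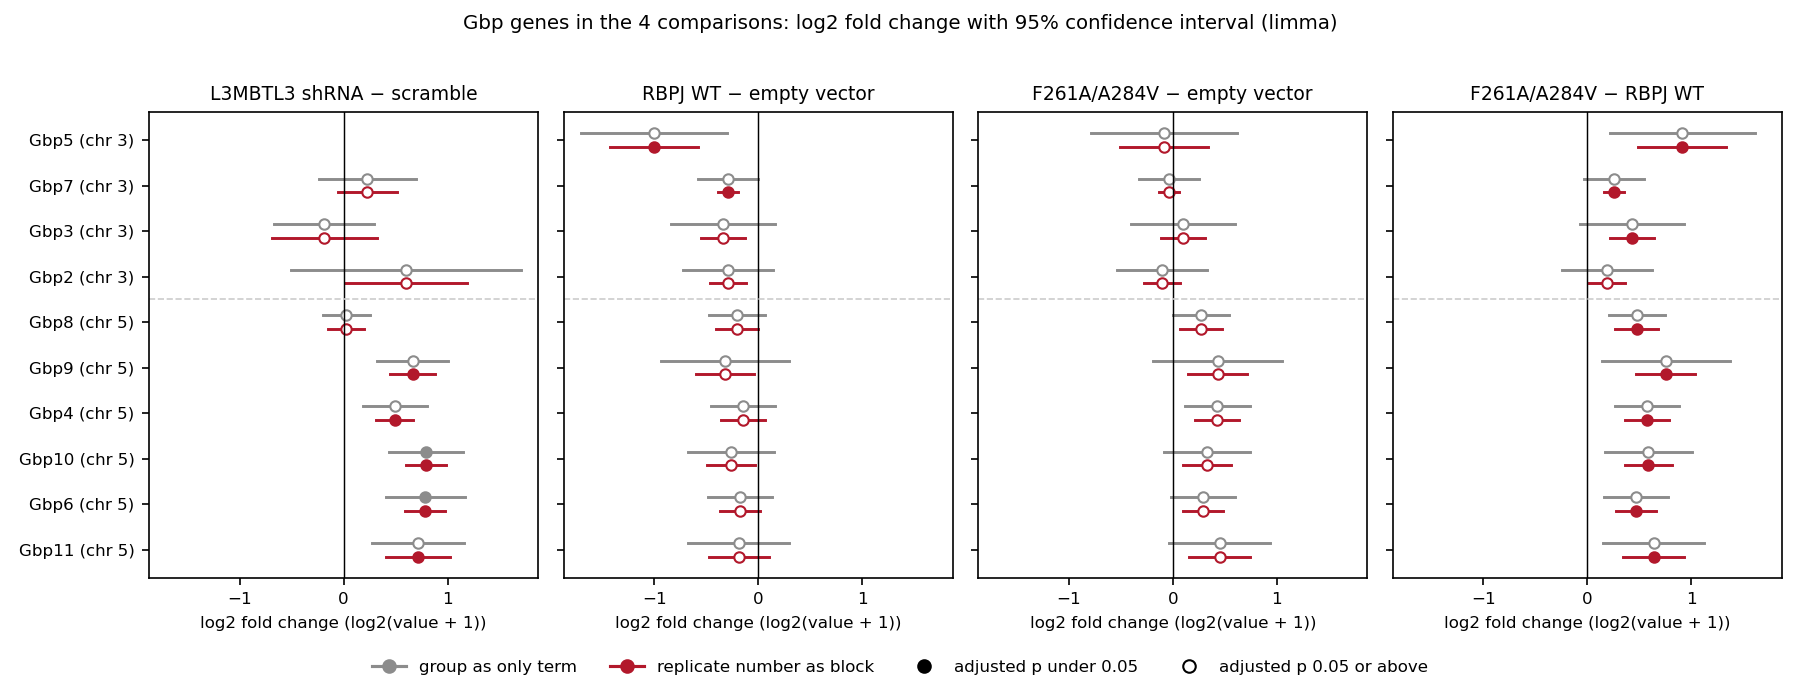
Log2 fold change (horizontal axis, on the log2(value + 1) scale) of each Gbp gene in the 4 comparisons, with 95% confidence intervals from limma, for the fit with group as the only term (grey) and with the replicate number as block (red). Filled points have an adjusted p under 0.05, and Gbp5 was not tested in the knockdown.

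In the rescue experiment, RBPJ WT libraries had lower values than the empty vector for all 10 members by the fitted fold change, from -0.15 (Gbp4) to -1.0 (Gbp5) on the log2 scale. With group as the only term none passed in limma, beside 0.248% of all 11691 tested genes called in either direction. Of the members, 2 were at an unadjusted p under 0.05 in limma, beside 3.40% of all genes. EdgeR's quasi-likelihood test on the recovered reads called none either. With a term for the divide between replicates 1-2 and 3-4, Gbp5 and Gbp7 fell, beside 1.32% of all genes called lower. With the replicate block the same 2 fell, beside 2.23% called in either direction. With the near-identical libraries merged and the term kept, Gbp7 alone fell, beside 0.855% called lower. The median log2 fold change was -0.27 over the members and -0.01 over all tested genes.

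Gbp5, whose human counterpart promotes inflammasome assembly, had values of 53.8, 48.4, 30.1 and 32.1 in empty vector replicates 1 to 4. The RBPJ WT libraries had 23.2, 25.3, 24.2 and 9.84, each below every empty vector library. The log2 fold change was -1.0 (95% confidence interval -1.48 to -0.52, adjusted p = 0.0188 with the term for the divide, 0.849 without it). With the near-identical libraries merged and the term kept, it was -0.99 and did not pass (adjusted p = 0.0632). It was -1.04 within replicates 1 and 2 and -0.96 within replicates 3 and 4. Gbp5 was the only member without overlap over all libraries, beside 1.87% of all genes lower in this way.

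Gbp7, the member with the highest mean value in the rescue, had 842, 889.5, 676 and 726 with the empty vector and 745, 736, 539 and 552 with RBPJ WT. The RBPJ WT library was the lower at each replicate number, although replicates 3 and 4 of the empty vector lay below replicates 1 and 2 of RBPJ WT. The log2 fold change was -0.29 (95% confidence interval -0.38 to -0.20, adjusted p = 0.0003 with the term, 1.00 without it).

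Gbp3 had 163, 160.3, 119 and 84.1 with the empty vector and 126, 124, 81.5 and 80.1 with RBPJ WT (log2 -0.34, adjusted p = 0.106 with the term). Gbp2 had 179, 196, 136 and 124 against 153, 155, 111 and 99.8 (log2 -0.29, adjusted p = 0.0956 with the term). In edgeR with the same term these also passed, with adjusted p = 0.0260 and 0.0417. Within both sides of the divide, Gbp2, Gbp3, Gbp5, Gbp7, Gbp9 and Gbp10 were lower without overlap, 6 of 10 members, beside 9.73% of all genes.

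The chromosome 5 members differed less within replicates 1 and 2, with log2 fold changes from -0.15 (Gbp9) to 0.02 (Gbp6), than within replicates 3 and 4, where they ran from -0.23 (Gbp4) to -0.49 (Gbp9). For no member did the test of this difference pass (smallest unadjusted p = 0.0055, Gbp6, adjusted p = 1.00). The sum of Gbp6 and Gbp10 was 494, 451, 393 and 409.6 with the empty vector and 462, 471, 293 and 315 with RBPJ WT, a ratio of group means of 0.843.

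RBPJ F261A/A284V was also compared with the empty vector, which serves both comparisons as control. Here 7 of 10 members had a fitted fold change above 0, all 6 of chromosome 5 among them. None passed in limma with group as the only term, beside 0.0171% of all tested genes. In that fit 2 members were at an unadjusted p under 0.05, beside 2.05% of all genes, and edgeR called none. With the term for the divide Gbp4 rose, 1 of 10, beside 0.393% of all genes called higher, and with the replicate block none passed, beside 0.65% of all genes called in either direction (Gbp4 adjusted p = 0.0546, 6 members at an unadjusted p under 0.05).

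Gbp4 had 287, 288, 230.0 and 241 with the empty vector and 322, 342, 393 and 348 with RBPJ F261A/A284V, without overlap (log2 0.43, 95% confidence interval 0.22 to 0.63, adjusted p = 0.0461 with the term). Gbp6 had 304, 260.6, 230.0 and 274 against 321, 320.2, 328 and 332, also without overlap (log2 0.29, adjusted p = 0.166). Gbp10 had 190.1, 190.3, 163 and 136 against 219, 221, 214 and 194 (log2 0.33, adjusted p = 0.176), and Gbp8 had 176, 162, 167 and 145 against 189, 189.6, 225 and 184 (log2 0.27, adjusted p = 0.240). These 4 genes were the members without overlap, beside 0.881% of all genes higher in this way. With near-identical libraries merged and the term kept, Gbp4 had an adjusted p of 0.413.

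The chromosome 3 members lay close to the empty vector. Their log2 fold changes were 0.10 for Gbp3, -0.04 for Gbp7, -0.09 for Gbp5 and -0.10 for Gbp2, and all 4 intervals with the term included 0. For Gbp7 the interval was -0.13 to 0.05, and for Gbp5, the member with the fewest reads, it was -0.57 to 0.40. The summed chromosome 3 members were 1237, 1295, 961 and 966 with the empty vector and 1186, 1195, 1002 and 953 with RBPJ F261A/A284V. The latter sum was lower at replicates 1, 2 and 4 and higher at replicate 3. The summed chromosome 5 members were 1208, 1139, 942 and 964 against 1304, 1391, 1429 and 1298, higher at each replicate number. Ratios of the group means with n = 3, 1.05 and 1.32, mix in the divide between replicates.

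RBPJ F261A/A284V against RBPJ WT, which asks how the 2 substitutions changed the outcome of putting RBPJ back, showed a higher fitted level for all 10 members. With group as the only term none passed in limma, beside 0.316% of all tested genes in either direction. In the same fit 7 members were at an unadjusted p under 0.05, beside 4.62% of all genes. EdgeR called none there. With the term for the divide 9 of 10 rose, all but Gbp2, beside 2.61% of all genes called higher, and the replicate block gave the same 9 beside 2.51%. The median log2 fold change was 0.52 over the members and 0.01 over all tested genes. Since both groups also enter the comparisons with the empty vector, these values are not separate evidence.

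Among the chromosome 5 members, Gbp9 had 150.2, 134, 79.0 and 60.4 with RBPJ WT and 164, 199.7, 171 and 141 with RBPJ F261A/A284V. The difference was small at replicate 1 and more than the RBPJ WT value itself at replicates 3 and 4 (log2 0.75, SE 0.13, adjusted p = 0.0011 with the term). Gbp4 had 272, 279, 175 and 231 with RBPJ WT, all below the lowest RBPJ F261A/A284V value of 322 (log2 0.57, SE 0.10, adjusted p = 0.0008). Gbp11 had 77.8, 88.7, 42.0 and 59.0 against 89.0, 119, 98.5 and 98.5, also without overlap (log2 0.64, SE 0.14, adjusted p = 0.0088).

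Gbp10 had 178, 182, 96.8 and 124 with RBPJ WT against 194 to 221 in the other group (log2 0.59, SE 0.11, adjusted p = 0.0013). Gbp6 had 283.9, 288, 196 and 191 against 320.2 to 332 (log2 0.47, SE 0.09, adjusted p = 0.0031). The sum of this pair was 462, 471, 293 and 315 with RBPJ WT and 540, 541, 542 and 526 with RBPJ F261A/A284V. The ratio of group means, 1.5, mixes in the divide, since the merged libraries lie on opposite sides of it. Gbp8 had 152, 171, 119.7 and 127 against 184 to 225 (log2 0.47, SE 0.10, adjusted p = 0.0042). The members without overlap over all libraries were Gbp4, Gbp6, Gbp8, Gbp10 and Gbp11, 5 of 10, beside 1.94% of all genes.

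Of the chromosome 3 members, Gbp5 had 38.3, 43.1, 47.7 and 25.0 with RBPJ F261A/A284V, higher than RBPJ WT at each replicate number (log2 0.91, SE 0.23, adjusted p = 0.0219 with the term). Its lowest library, replicate 4, lay just under the highest RBPJ WT library at 25.3. Gbp7 had 837, 828, 684 and 699.7 (log2 0.25, SE 0.04, adjusted p = 0.0009), and Gbp3 had 149, 157, 126 and 116 (log2 0.43, SE 0.10, adjusted p = 0.0154). Gbp2, with 163, 167, 145 and 112, had the smallest difference (log2 0.19, 95% confidence interval 0.00 to 0.37, adjusted p = 0.237). Within both sides of the divide all 10 members were higher without overlap, beside 7.08% of all genes. Merging the near-identical libraries and keeping the term left 6 members called, beside 1.08% of all genes called higher, and Gbp3, Gbp5 and Gbp11 no longer passed (adjusted p = 0.162, 0.0947 and 0.0732).

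The size of the difference varied with the side of the divide. Within replicates 1 and 2 the log2 fold changes ran from 0.10 (Gbp2) to 0.72 (Gbp5), and 1 member, Gbp5, was called, beside 0.719% of all genes called higher. Within replicates 3 and 4 they ran from 0.27 (Gbp2) to 1.16 (Gbp9), and 8 were called, all but Gbp2 and Gbp5, beside 3.64% of all genes called higher. For Gbp6 the log2 fold change was 0.16 within replicates 1 and 2 and 0.77 within replicates 3 and 4, and this difference of 0.60 passed its own test (limma interaction, adjusted p = 0.0344, with 67 of 11691 genes called). Gbp4 (0.61, adjusted p = 0.0573) and Gbp9 (0.81, adjusted p = 0.0715) did not pass. Depth was lower in replicates 3 and 4 of all groups, and its part in this was not tested.

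**Figure D4:**
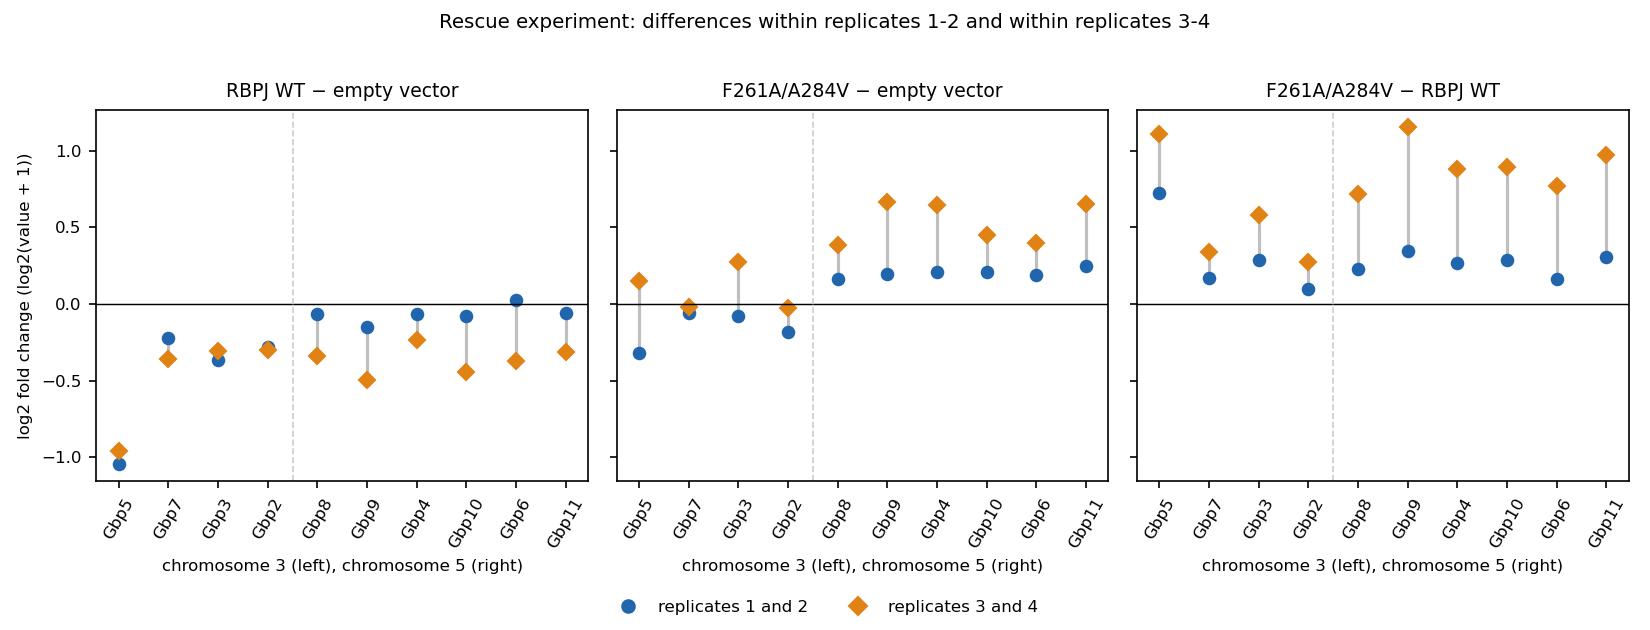
Log2 fold change (vertical axis, log2(value + 1) scale) of each Gbp gene in the 3 rescue comparisons, within replicates 1 and 2 (circles) and within replicates 3 and 4 (diamonds). In the comparison of RBPJ F261A/A284V with RBPJ WT every point lies above 0 and every diamond above its circle, while Gbp5 is near -1.0 on both sides for RBPJ WT against the empty vector.

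Members also differed across the divide. Averaged over the 3 rescue groups, all 10 members had lower fitted values in replicates 3 and 4 than in replicates 1 and 2. The difference passed for 9 of them, all but Gbp8 (adjusted p = 0.130), beside 37.6% of all tested genes called lower and 73.2% called in either direction. The log2 differences ran from -0.64 (Gbp9) to -0.13 (Gbp8), with a median of -0.41 over the members and -0.02 over all genes. For Gbp9 the SE of the difference between RBPJ F261A/A284V and RBPJ WT was 0.28 without the term and 0.13 with it.

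Gbp2b, the remaining relative with a row, was low in the knockdown (9.83 to 21.6). In the rescue it had 79.2, 77.3, 40.8 and 38.0 with RBPJ WT, and rose to 94.3, 107, 69.3 and 52.9 with RBPJ F261A/A284V in the fit with the replicate block (log2 0.48, adjusted p = 0.0314).

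Genes that act with the family were read from lists drawn up from textbook knowledge. Their calls were read only in the limma fits with group as the only term, with the block and, in the rescue, with the term. Immunity-related GTPases, which also attack pathogen vacuoles, had 12 listed genes, of which 3 passed the filter in the knockdown. All 3 rose with the block and none without it. They were Irgm1 (80.7 ± 28.4 to 159 ± 18.6, log2 1.03, adjusted p = 0.0012), Irgm2 (54.0 ± 14.5 to 91.2 ± 12.7, log2 0.77, adjusted p = 0.0069) and Igtp (119.6 ± 22.2 to 161 ± 26.7, log2 0.43, adjusted p = 0.0197; SD, n = 3 each). In the rescue 4 passed the filter, and only Gvin1 was called, higher with RBPJ F261A/A284V than with RBPJ WT (log2 0.97, adjusted p = 0.0163 with the term).

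Upstream genes had few calls. Ifng, which encodes interferon gamma, was at 0 to 1.87 in all 18 libraries, so its level could not be compared at this depth. Of 10 tested interferon receptor and kinase genes, the phosphatase gene Ptpn2 fell in the knockdown (log2 -0.31, adjusted p = 0.0042 with the block) and no other passed in any comparison. Among 10 tested transcription factors of the response, Irf3 rose in the knockdown with the block (log2 0.23, adjusted p = 0.0392). None of the 10 passed in a rescue comparison in limma, with or without the term.

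Of the 16 other interferon-induced genes, 13 were tested in the knockdown. The RNA sensor gene Ddx58 rose in both fits (367 ± 71.3 to 607 ± 39.7, SD, n = 3 each, log2 0.74, adjusted p = 0.0384 without the block). With the block Parp14 (log2 1.28), the RNA sensor gene Ifih1 (1.16) and Xaf1 (0.77) rose too, while the chemokine gene Cxcl10 fell (-1.18). In the rescue 14 were tested. With the term, Ifih1 (log2 -0.83), Xaf1 (-0.46) and Parp14 (-0.38) fell with RBPJ WT against the empty vector. Ifih1 (log2 0.94), Parp14 (0.40) and Ddx58 (0.22) rose with RBPJ F261A/A284V against RBPJ WT. The median log2 fold change of the list was -0.02 in the knockdown, -0.07 for RBPJ WT against the empty vector and 0.12 for RBPJ F261A/A284V against RBPJ WT, beside 0.60, -0.27 and 0.52 for the 9 or 10 tested Gbp genes.

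Among 9 tested inflammasome and lysis genes of the rescue, Casp4, the sensor caspase to which Gbp proteins deliver lipopolysaccharide, fell with RBPJ WT against the empty vector (324 ± 42.5 to 207 ± 15.1, log2 -0.55, adjusted p = 0.0003 with the term). It rose with RBPJ F261A/A284V against RBPJ WT (286 ± 42.4, log2 0.49, adjusted p = 0.0009; SD, n = 3 each). In the knockdown Naip2 (log2 0.41) and Irf3 rose with the block, of 8 tested. Of 15 genes for lipid attachment and autophagy, Atg12 (log2 -0.30), Atg16l1 (-0.18) and Sqstm1 (-0.19) fell in the knockdown with the block, and none passed in the rescue. Other dynamin-like GTPases, 8 tested in the knockdown and 9 in the rescue, had no call in any of these limma fits (group only, block or term).

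Genes next to the clusters were compared as well. Abcg3, a transporter gene before the chromosome 5 cluster, rose in the knockdown (155 ± 25.2 to 255 ± 31.6, log2 0.72, adjusted p = 0.0454 without the block). It also rose with RBPJ F261A/A284V against RBPJ WT with the term (log2 0.98, adjusted p = 0.0043). Its values there were 96.9, 91.9, 25.5 and 23.9 with RBPJ WT and 112, 109, 78.5 and 91.1 with the mutant. Ccbl2, after the chromosome 3 cluster, fell with RBPJ WT against the empty vector (log2 -0.35, adjusted p = 0.0035 with the term). The tested neighbours Pdlim5, Gtf2b, Pkn2, Zfp951, Lrrc8b and Lrrc8c passed in none of the limma fits with group only, with the block or with the term.

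Patterns most like the leading members were sought by Pearson correlation of log2(value + 1). Over the 6 knockdown libraries, the genes most like Gbp4 were Abcc4, Acap3, Pofut1, Dnajc30 and Tsc2 (r from 0.996 to 0.998). Gbp9 had an r of 0.98 with Gbp4 (rank 185 among the tested genes), Gbp6 0.96 (rank 524), Gbp11 0.95 (652) and Gbp10 0.95 (754). Many genes outside the family were thus closer to Gbp4. Gbp7 (0.85, rank 2164), Gbp2 (0.77, rank 2783), Gbp8 (0.43, rank 4392) and Gbp3 (-0.20, rank 6219) lay further off. Over the 12 rescue libraries genes among the most like Gbp7 were Aldh4a1, Hace1, Faap24 and Arhgap31 (0.967 to 0.984). After the mean of replicates 1-2 and that of 3-4 were subtracted, they were Ifitm3, Pmm1, Stx7, Psmc3ip and Gimap1 (0.968 to 0.978). These libraries share groups and the divide, and the values are descriptions.

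Markers of other cell types were followed beside these results. The 8 myeloid markers summed to between 378 and 409 in scramble and between 255 and 322 with the hairpin. In the rescue they summed to between 287 and 312 with the empty vector, between 235 and 265 with RBPJ WT and between 276 and 310 with RBPJ F261A/A284V. Of these markers Cd14 was at 0 in every knockdown library. Of the 2 tested in the knockdown, Cd68 (log2 -0.38, adjusted p = 0.0078) and Fcgr3 (-0.84, adjusted p = 0.0404) fell with the block, opposite in sign to the Gbp genes called. In the rescue 4 were tested, and Itgam fell with RBPJ WT against the empty vector (44.8 ± 19.0 to 12.7 ± 4.25, log2 -1.74, adjusted p = 2.6e-05 with the term). Itgam (33.0 ± 10.4, log2 1.09, adjusted p = 0.0035) and Cd68 (log2 0.47, adjusted p = 0.0089) rose with RBPJ F261A/A284V against RBPJ WT with the term, in the direction of the Gbp genes. Only these 2 of the 4 tested myeloid markers had a fitted fold change above 0 there. The rest, Fcgr3 among them, did not share that direction, and none was called lower. The 6 stroma and endothelium markers summed to between 248 and 395 in the knockdown, with Col1a2 and Col3a1 at 0 in all 18 libraries. In the rescue they summed to between 553 and 587 with the empty vector, between 606 and 646 with RBPJ WT and between 437 and 564 with RBPJ F261A/A284V, and RBPJ WT overlapped neither other group. Nearly all of this was Pecam1, which fell with RBPJ F261A/A284V against RBPJ WT (log2 -0.28, adjusted p = 0.0017 with the term). Among 11 tested T cell markers, Cd28 fell with RBPJ WT against the empty vector (log2 -0.78) and rose with RBPJ F261A/A284V against RBPJ WT (log2 0.49), both with the term. In the knockdown Cd2 was among those that rose with the block. The part of these markers in the Gbp values was not tested. L3mbtl3 differed between the rescue groups in the direction of the Gbp genes, at 524 ± 30.6 with RBPJ WT and 672 ± 61.7 with RBPJ F261A/A284V (SD, n = 3 each, log2 0.38, adjusted p = 0.0001 with the term). Its part was not tested either.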

How the data were processed

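The authors deposited 2 tables of a signal, normalized counts per gene. DESeq2 1.24.0, TopHat2 2.1.1 and the build mm9 are listed in the submitters' processing notes. The labels name no read counter, and no handling of strand or shared reads. In every library 100% of values were whole multiples of 1 read (tolerance 0.1 read), so reads were recovered.

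Tested genes had 10 or more in at least 3 (knockdown) or 4 (rescue) libraries, 11586 and 11691 genes. limma 3.58.1 (trend, 2-sided, R 4.3.3) was fitted to log2(value + 1) with group as the only term, in the rescue over all 12 libraries. Calls needed an adjusted p (Benjamini-Hochberg, all tested genes) under 0.05. This scale understates fold changes of low genes. Alternatives were the replicate number as a block, a term for rescue replicates 1-2 against 3-4, fits within each side, pseudocount 5, no filter, quantile scaling, merged near-identical libraries, only the groups compared, each library left out, and edgeR 4.0.16 on recovered reads. Adjusted p-values are from limma unless edgeR is named.

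Between libraries sharing a number, deviations from group means had correlations of 0.24 to 0.54 (knockdown) and 0.55 to 0.81 (rescue), so block results are given where they change a call. In the rescue this follows the divide between replicates 1-2 and 3-4, since other numbers on the same side correlated up to 0.83. Near-identical pairs had a chi-square per degree of freedom of 0.859, 0.721 and 0.823. No separate cultures are named, and p-values therefore cover only the spread among these libraries, possibly a technical one.

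Members and lists were chosen with earlier results of these data known. All members are named, of the other lists the genes called without a term or with the term for the divide, at most 4 per list and comparison, and the 5 genes most like the leading member. List genes called only with the block were named after their values were seen. Some genes that these rules name are not reported here. The limma and edgeR fits with group as the only term were tested on simulated data without the divide or near-identical libraries. Fits with the block, the term or merging were not tested in this way.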

Additional observations from a re-analysis of the deposited data

Results flagged for a closer look

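In the RBPJ WT group, replicate 4 stood apart for Gbp5, with 9.84 normalized counts against 23.2 to 25.3 in the other libraries, a gap of 0.862 of the group's range. In the RBPJ F261A/A284V group, replicate 3 stood apart for Gbp8, with 225 against 184 to 189.6, a gap of 0.858 of the range. For groups of independent values chance marks about 1 in 20 in this way, and 2 of 30 were marked here. These libraries hold the divide and near-identical pairs, so that rate need not apply to them. Without RBPJ WT replicate 4 the log2 fold change of Gbp5 between RBPJ WT and the empty vector was -0.70 in place of -1.0. For Gbp6 the difference between RBPJ F261A/A284V and RBPJ WT was larger by 0.60 on the log2 scale within replicates 3 and 4 than within replicates 1 and 2 (limma interaction, adjusted p = 0.0344).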

How the results depend on the processing

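With the replicate block the number of members called was 5 in the knockdown, 2 for RBPJ WT against the empty vector, and 9 for RBPJ F261A/A284V against RBPJ WT, in place of 2, 0 and 0. The pairing by number changed no other count. With the term for the divide between replicates 1-2 and 3-4 it was 2, 1 and 9 in the rescue comparisons (RBPJ WT against the empty vector, RBPJ F261A/A284V against the empty vector, and RBPJ F261A/A284V against RBPJ WT). Within replicates 1 and 2 it was 1, 0 and 1, and within replicates 3 and 4 it was 1, 1 and 8. Merging near-identical libraries with the term gave 1 (Gbp7, not Gbp5), 0 and 6. In edgeR on recovered reads with the same term, chosen after seeing the data, it was 4, 1 and 9, and with the block in the knockdown 5. Shares of all genes called are not given for the edgeR fits, nor for the within-side fits against the empty vector. Those counts therefore have no background beside them.

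Leaving out 1 library gave 0 to 4 calls in the knockdown and 0 in each rescue comparison. Pseudocount 5, no filter, quantile scaling, edgeR with group only, and only the groups compared kept all 4 counts within 1.5 times.

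Some fitted log2 fold changes changed sign. In the knockdown Gbp8 turned to -0.0071 under quantile scaling and ranged from -0.0223 to 0.11 with 1 library left out, and Gbp7 from -0.0281 to 0.36. For RBPJ WT against the empty vector, Gbp6 (-0.17 with all libraries) was 0.0246 within replicates 1 and 2, and Gbp11 (-0.19 with all libraries) ranged from -0.34 to 0.0159 with 1 library left out. For RBPJ F261A/A284V against the empty vector, merging without the term gave 0.0497 for Gbp2, 0.0902 for Gbp5 and 0.0576 for Gbp7. That fit holds a single empty vector sample from replicates 1 and 2, and a single mutant sample from replicates 3 and 4. With merging and the term the values were -0.11, -0.07 and -0.05, with the sign of the fit over all libraries. Within replicates 1 and 2 Gbp3 was -0.0811, and within replicates 3 and 4 Gbp5 was 0.15. With 1 library left out Gbp2 ranged from -0.21 to 0.0197, Gbp3 from -0.10 to 0.21, Gbp5 from -0.22 to 0.10 and Gbp7 from -0.11 to 0.0266. The causes were not tested. Depth limits Gbp5 most, the member with the fewest reads.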
